A study of Caenorhabditis elegans with 78 samples.

Results

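H3K9me2 (histone H3 dimethylated at lysine 9) was mapped in lin-35(n745) mutant larvae of Caenorhabditis elegans raised at 20 °C or 26 °C, and the question taken up here is which stretches of the genome carried a called peak at only 1 of these temperatures. Peaks of the 4 lin-35 lists, 2 per temperature, were merged where they overlapped, which gave 11631 regions. A region was 20 °C-specific when both 20 °C lists and neither 26 °C list had a peak in it, and 26 °C-specific in the reverse case. By this rule 760 regions were 20 °C-specific (6.53% of those merged) and 92 were 26 °C-specific (0.791%), 852 in all. The whole series holds 78 chromatin immunoprecipitation sequencing samples, and the 16 H3K9me2 lists of its 4 genotypes merge into 16691 regions.

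All larvae were in the first stage (L1), hatched without food and frozen whole. The 20 °C groups were kept at 20 °C throughout, while for the 26 °C groups the parents were moved from 20 °C when they were fourth-stage larvae and the embryos also developed at 26 °C. The lin-35 groups carry the n745 allele at both temperatures, so genotype does not differ between them. With 2 lists at each temperature, a difference between temperatures cannot be told apart from one between libraries. Wild type (N2), lin-15B(n744) and lin-37(n758) lists, 2 at each temperature, were used only for comparison. Whole animals were measured, so fewer cells with the mark and less mark per cell cannot be told apart. The lists hold no reads, so the sequencing depth behind each is unknown, the mutation could not be checked in them, and a missing peak says only that none was called.

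LIN-35 is the worm's only retinoblastoma-like pocket protein and acts with the DREAM complex, of which LIN-37 is a subunit, to repress target genes; LIN-15B is a THAP-domain protein of the same synMuv B class. Mutants of this class express germline genes in somatic cells and arrest as larvae at high temperature. H3K9me2 is a mark of repressed chromatin. In worms it is concentrated on the repeat-rich arms of the autosomes, and it is also found at promoters of germline genes in somatic tissue.

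Lists made at 26 °C were shorter than those made at 20 °C. At 20 °C replicate 1 held 9167 peaks and replicate 2 held 10730, against 7610 and 7420 at 26 °C, so both 26 °C lists lay below both 20 °C lists. The means were 7515 ± 134 (SD, n = 2) at 26 °C and 9948.5 ± 1105 (n = 2) at 20 °C. Covered length was 8.90 and 11.7 Mb at 20 °C and 8.97 and 8.53 Mb at 26 °C, and here the groups overlapped. The median peak width was 501 and 583.5 bp at 20 °C and 604 and 592 bp at 26 °C. With 2 lists against 2 an exact permutation test cannot go below a two-sided p of 0.333, which was the p for peak number and for peak width (adjusted p = 0.833 over 5 values). For covered length the exact permutation p was 0.667, and for the share of autosomal length on arms and the share of length on X it was 1.

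Peaks were split by whether all 4 lists called the region, a division that the calls themselves decide. Of the 11631 merged regions, 5191 (44.6%) were called in all 4 lists. These held 6425 and 5822 peaks at 20 °C and 5723 and 6033 at 26 °C, values that overlap between the temperatures. The other regions held 2742 and 4908 peaks at 20 °C and 1887 and 1387 at 26 °C. Replicate 2 at 20 °C alone had 2492 regions that no other list called, against 345 for the other 20 °C list and 298 and 400 for the 26 °C lists. The Jaccard index (shared length divided by joint length) was 0.620 between the 20 °C lists and 0.654 between the 26 °C lists. Between temperatures it ran from 0.533 to 0.701, so the lists did not group by temperature in this measure. The highest index belonged to the replicate 1 lists of both temperatures, whose deposited names share a code that those of the replicate 2 lists do not carry. What the code stands for is not stated in the labels, and its part in the result was not tested.

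**Figure D1:**
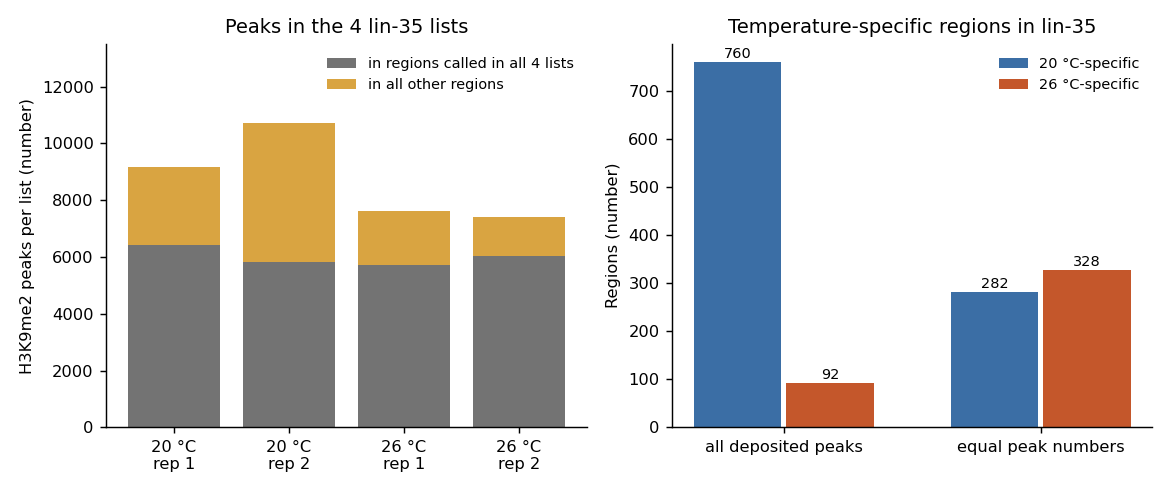
The left panel stacks the number of H3K9me2 peaks in each lin-35 list, split into peaks in the 5191 regions called in all 4 lists and peaks in all other regions. The right panel gives the number of 20 °C-specific and 26 °C-specific regions from all deposited peaks (760 and 92) and with every list reduced to its 7420 best-scoring peaks (282 and 328).

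The excess of 20 °C-specific regions moved with the length of the lists. When each list was reduced to its 7420 best-scoring peaks, the length of the shortest, 282 regions were 20 °C-specific and 328 were 26 °C-specific, so the direction of the imbalance turned. Of the 760 regions, 273 (35.9%) were still 20 °C-specific, 263 kept a peak in 1 list and 224 had no peak left in any list. Of the 92 regions, 78 (84.8%) were still 26 °C-specific. The 273 regions made up 96.8% of the 282, while the 78 made up 23.8% of the 328. The cut took no peak from 26 °C replicate 2 and few from 26 °C replicate 1 (7610 peaks). It took more from the 20 °C lists (9167 and 10730 peaks), so the shares still specific cannot be compared between the sets. How far depth or enrichment set the list lengths was not tested.

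Counts also moved with single lists. Without 20 °C replicate 1, replicate 2 alone stood for 20 °C and 3282 regions were 20 °C-specific; without 20 °C replicate 2 there were 1305, and without 26 °C replicate 1 or replicate 2 there were 1651 or 1049. The 26 °C-specific count was 289 without 20 °C replicate 1, 211 without 20 °C replicate 2, 523 without 26 °C replicate 1 and 405 without 26 °C replicate 2. Each reduced set asks for fewer lists and so admits more regions by construction. In all 4 of these sets the 20 °C-specific regions outnumbered the 26 °C-specific ones. Each 20 °C list is longer than each 26 °C list, so leaving out 1 list keeps that imbalance of length.

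Regions on the border of the rule were more numerous than the members. Called in both 20 °C lists and in 26 °C replicate 1 alone were 847 regions, and in both 20 °C lists and 26 °C replicate 2 alone 282. Called in both 26 °C lists and in 20 °C replicate 1 alone were 195 regions, and in both 26 °C lists and 20 °C replicate 2 alone 111. A further 618 regions were called in exactly 1 list of each temperature. These have as many calls as a temperature-specific region and are set beside the members below.

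Temperature-specific regions followed the chromosome-arm pattern of H3K9me2. Each region was placed by its midpoint, and an autosome's first and last 30% counted as arms. Of the 687 autosomal 20 °C-specific regions, 599 lay on arms (87.2%, 95% exact binomial interval 84.5 to 89.6%), 298 of the 760 on left and 301 on right arms, and 88 in centres. Of the 76 autosomal 26 °C-specific regions, 66 lay on arms (86.8%, 77.1 to 93.5%) and 10 in centres. All merged regions had 84.9% on arms and the regions called in all 4 lists had 88.1%, both within or near these intervals. The 618 regions called once at each temperature had a lower arm share, 76.2%. The intervals cover counting error only, and regions of the same libraries are not replicates.

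The X chromosome held 73 of the 760 20 °C-specific regions (9.61%, 95% exact binomial interval 7.60 to 11.9%) and 16 of the 92 26 °C-specific regions (17.4%, 10.3 to 26.7%). The share among all merged regions was 11.6%, inside both intervals, and among regions called once at each temperature it was 19.7%. X shares are a description of these regions, and the difference between the 2 sets was not tested.

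**Figure D2:**
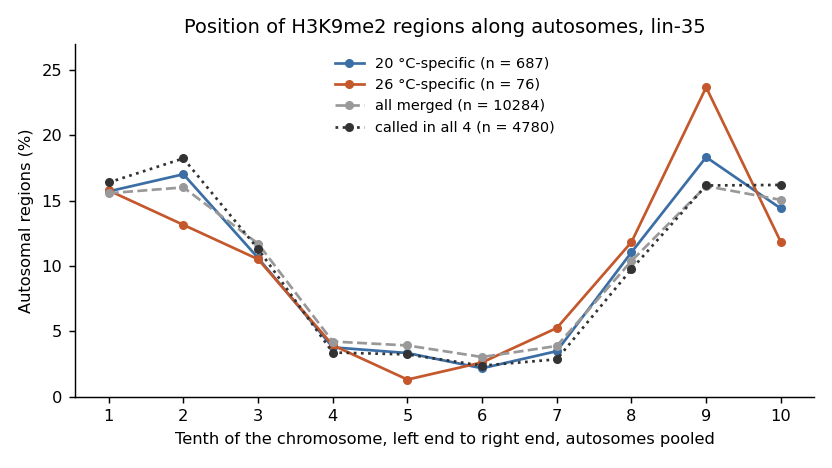
Share of autosomal regions (y axis, %) in each of 10 equal bins of the chromosome from left end to right end, autosomes pooled, for 20 °C-specific (n = 687), 26 °C-specific (n = 76), all merged (n = 10284) regions and regions called in all 4 lists (n = 4780). All 4 lines are high at both ends and low in the middle, and the 26 °C-specific line has the highest point, 23.7% in the ninth bin, from 18 regions.

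Among the autosomes the right arm of chromosome V held the most 20 °C-specific regions. There 125 of 1225 merged regions were 20 °C-specific (10.2%), followed in share by the left arm of II with 78 of 850 (9.18%) and the left arm of III with 62 of 762 (8.14%). The left arm of I had the lowest share, 40 of 988 (4.05%). By whole chromosome the share ran from 5.10% on I to 8.12% on V, with 5.42% on X, against 6.53% overall. The 26 °C-specific regions were spread thinly, from 13 on IV to 19 on V. On I, 12 of its 16 lay on the left arm and none in the centre.

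The median width was 488.5 bp for 20 °C-specific and 450.5 bp for 26 °C-specific regions, against 1269 bp for regions called in all 4 lists and 635 bp for all merged regions. Regions called once at each temperature had a median of 424 bp. Peak rank was expressed as a percentile of the caller's score within its own list, with 100 at the top. The median of the mean rank percentile was 27.8 for 20 °C-specific regions and 19.9 for 26 °C-specific regions, against 63.9 for regions called in all 4 lists and 22.2 for regions called once at each temperature. A mean rank percentile above 50 was found in 2 of the 92 26 °C-specific regions (2.17%) and 89 of the 760 20 °C-specific regions (11.7%). Among all merged regions the share was 36.2%. These medians moved with the lists used. With equal peak numbers the order of the widths turned, to 388 bp for 20 °C-specific and 592 bp for 26 °C-specific regions. The rank percentiles were then 43.3 and 22.9. Percentiles were kept from the whole lists, and the cut drops the lowest-ranked peaks of the longer 20 °C lists. A higher 20 °C-specific percentile therefore follows from the cut itself. The 20 °C-specific width was 237 bp without 20 °C replicate 2, and its rank percentile was 16.98. The 26 °C-specific width was 276 bp without 26 °C replicate 1 and 272 bp without 26 °C replicate 2, and without the latter its rank percentile was 8.92.

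Percentiles from lists of different length, longer at 20 °C, are not on a common scale. The percentiles above and below therefore do not show whether 20 °C-specific or 26 °C-specific peaks were the weaker. The 760 regions had a median rank percentile of 18.5 in 20 °C replicate 1 and 35.8 in 20 °C replicate 2, and a median covered length of 263 and 423.5 bp. They made up 3.16% and 4.43% of the covered length of those lists. The 92 regions had median rank percentiles of 16.1 and 19.2 in the 26 °C lists and made up 0.400% and 0.437% of their length.

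**Figure D3:**
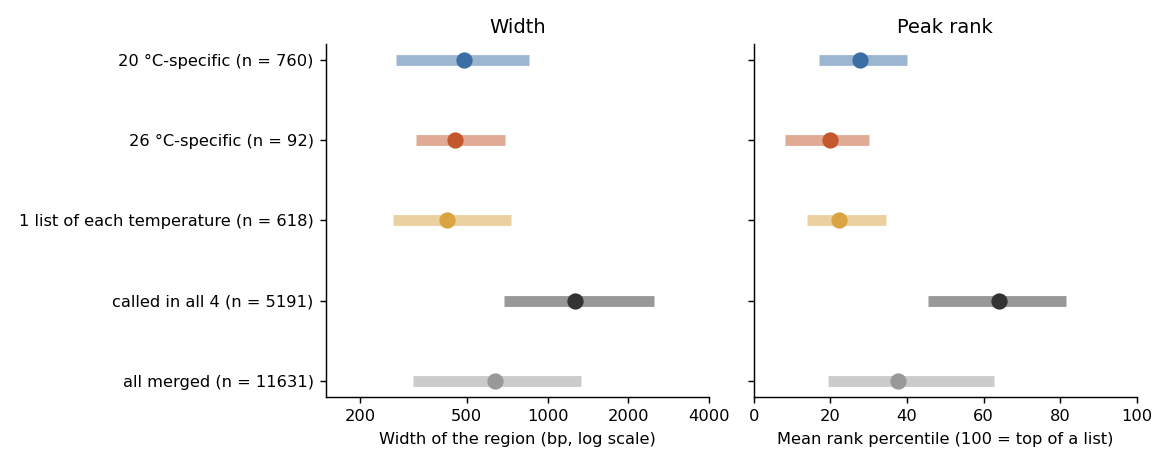
Medians (dots) and quartiles (bars) of region width (left, bp, log axis) and of mean rank percentile (right, 100 = top of a list) for 5 sets of merged lin-35 regions. Both temperature-specific sets sit near the regions called once at each temperature (424 bp, rank percentile 22.2) and below the regions called in all 4 lists (1269 bp, rank percentile 63.9). Rank percentiles come from lists of different length.

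A minority of 20 °C-specific regions were long. Of the 760, 42 (5.53%) exceeded 2 kb, whereas none of the 92 26 °C-specific regions did, the longest being 1860 bp. Among regions called once at each temperature the share over 2 kb was 0.485%, and among regions called in all 4 lists 32.7%. The longest 20 °C-specific region was 11303 bp, at III 2665503 to 2676805 (ce10, left arm). It had 7140 bp of peaks in 20 °C replicate 1 and 11303 bp in replicate 2, at rank percentiles of 25.7 and 52.6, and no peak at 26 °C. All 4 wild-type lists, all 4 lin-15B lists and both lin-37 20 °C lists called it, as did 1 of 2 lin-37 26 °C lists. The next longest, III 505603 to 511133 (5531 bp, left arm) and II 1690047 to 1694938 (4892 bp, left arm), were likewise called in all 6 20 °C lists of the other genotypes, and in 4 and 2 of their 6 26 °C lists. With equal peak numbers the first and the second of these 3 regions were still 20 °C-specific, and the third kept a peak in 1 20 °C list.

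The share of members within 1 kb of a region called in all 4 lists was near or below that of all merged regions. The median distance from a 20 °C-specific region to the nearest such region was 4.68 kb, and 124 of the 760 (16.3%) lay within 1 kb. For 26 °C-specific regions the median was 3.19 kb and 19 of 92 (20.7%) lay within 1 kb. All merged regions had a median of 3.46 kb with 20.4% within 1 kb. Along the merged regions, 615 of the 760 20 °C-specific regions had no 20 °C-specific neighbour on either side and 145 stood in runs. The longest run was 5 regions, at V 17081359 to 17091357 on the right arm. Of the 92 26 °C-specific regions 86 had no 26 °C-specific neighbour.

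The 20 °C-specific regions of highest rank included sites that the other genotypes kept at 26 °C and sites that they did not. At III 3739861 to 3740768 (908 bp, left arm) the rank percentile was 82.9 and 97.8 in the 20 °C lists. No 26 °C lin-35 list called it, while all 12 lists of the other genotypes did. At III 13061597 to 13062177 (581 bp, right arm) the rank percentiles were 87.0 and 90.8, and 11 of the 12 other lists called it, the exception being a lin-37 26 °C list. H3K4me3, a mark of active promoters, was called there in all 4 lin-35 and all 4 wild-type lists.

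At X 14126946 to 14127709 (764 bp) the rank percentiles were 88.3 and 90.7 at 20 °C. H3K9me2 was called in all 8 20 °C lists of the 4 genotypes and in none of the 8 26 °C lists, and H3K4me3 in all 4 lin-35 and all 4 wild-type lists. At V 20058786 to 20059334 (549 bp, right arm; 86.7 and 85.8) and V 20041230 to 20041532 (303 bp, right arm; 83.8 and 85.1) all 6 other 20 °C lists and 1 of 6 other 26 °C lists, a lin-15B list, had a peak. At I 3740148 to 3740517 (370 bp, left arm; 87.5 and 84.4) no lin-15B list and 3 of 4 wild-type lists did, with H3K4me3 again in all 4 lin-35 and all 4 wild-type lists. All 6 of these regions were still 20 °C-specific with equal peak numbers, which follows from their choice. The cut drops only the lowest-ranked peaks and adds none, so regions chosen for high rank could not be lost by it.

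Of the 760 regions, 10 were called in all 8 20 °C lists and in none of the 8 26 °C lists. Of the 10, 7 lay on the right arm of V, which held 125 of the 760, 2 on the left arm of II and 1 on X. Beside the X region above, the highest in rank were V 18916257 to 18916736 (480 bp, rank percentiles 78.3 and 83.2) and V 20109542 to 20110530 (989 bp, 63.4 and 63.6), both without H3K4me3 in any lin-35 or wild-type list. With equal peak numbers 4 of the 10 were still called in all 8 20 °C lists. No 26 °C-specific region had the reverse pattern, in which all 8 26 °C lists and no 20 °C list call it.

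The 26 °C-specific regions of highest rank were 173 to 1082 bp wide and lay mainly on arms. V 17123877 to 17124185 (309 bp, right arm) had rank percentiles of 77.2 and 85.3 in the 26 °C lists, the only member of this set with a mean above 80. It was called in both lin-15B and both lin-37 26 °C lists and in no 20 °C list of these mutants, and in 1 wild-type list at each temperature. V 104516 to 105038 (523 bp, left arm; 53.1 and 67.6) was called in both wild-type and both lin-37 26 °C lists, in no 20 °C list of the other genotypes and in no lin-15B list. H3K4me3 was called there in all 4 lin-35 and all 4 wild-type lists.

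X 13701112 to 13702193 (1082 bp; 40.9 and 52.9) was called in 5 of 6 other 26 °C lists and in no other 20 °C list. V 19365802 to 19366144 (343 bp, right arm, 26.2 and 68.9) and IV 1579719 to 1579891 (173 bp, left arm, 21.03 and 71.1) ranked far apart in their replicates. The V region was called in 2 of 6 other 20 °C lists and 1 of 6 other 26 °C lists, all of wild type. The IV region was called in 1 of 6 other 20 °C lists and 4 of 6 other 26 °C lists. I 1152894 to 1153533 (640 bp, left arm; 38.4 and 51.1) was called in both lin-37 26 °C lists and in neither lin-37 20 °C list, but in 3 of 4 wild-type lists. The longest members were II 4234617 to 4236476 (1860 bp, left arm), V 17979398 to 17981201 (1804 bp, right arm) and V 11953377 to 11955024 (1648 bp, centre), with mean rank percentiles of 23.7, 27.1 and 10.7.

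The 12 lists of the other genotypes, which the rule did not use, separated by temperature at these regions in lin-37. Of the 760 20 °C-specific regions, 79.5% and 73.0% had a peak in the lin-37 20 °C lists and 21.2% and 36.4% in the lin-37 26 °C lists, and the temperatures did not overlap. The wild-type lists called 50.1% and 50.8% of them at 20 °C against 46.8% and 42.9% at 26 °C, a smaller gap, also without overlap. All merged regions had 59.2% and 65.3%, and 66.03% and 59.2%, in the same wild-type lists. The lin-15B lists called 48.3% and 83.0% at 20 °C against 63.7% and 63.9% at 26 °C, so the temperatures overlapped. All merged regions had 49.9% and 78.9%, and 68.3% and 68.1%, in the same lin-15B lists. Peak names give a q cutoff of 0.05 for lin-15B 20 °C replicate 1, the first of each lin-15B pair at 20 °C, and 0.01 for all other H3K9me2 lists. All merged lin-35 regions were called at 68.9 to 72.5% in the lin-37 20 °C lists and 57.5 to 59.9% in its 26 °C lists, a gap in the same direction. The regions called once at each temperature had 43.2 to 54.0% and 39.0 to 44.7% in the same lists.

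The 26 °C-specific regions also separated by temperature in lin-37 and in lin-15B. Of the 92, 47.8% and 32.6% had a peak in the lin-37 26 °C lists and 13.0% and 8.70% in its 20 °C lists. The lin-15B lists called 37.0% and 31.5% at 26 °C against 5.43% and 19.6% at 20 °C, while the shares of all merged regions in these lists, given above, overlapped between temperatures. The wild-type lists called 54.3% and 25.0% at 26 °C against 31.5% and 60.9% at 20 °C, with overlap.

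With equal peak numbers in all 16 lists the lin-37 shares still did not overlap between temperatures, but this is not a separate check. Of the 282 regions that were then 20 °C-specific in lin-35, 75.5% and 67.4% had a peak in the lin-37 20 °C lists and 25.9% and 38.7% in the 26 °C lists. All merged regions then had 69.3% and 61.7% at 20 °C and 67.7% and 65.7% at 26 °C. Of the 328 regions that were 26 °C-specific, 53.7% and 35.1% had a peak in the lin-37 26 °C lists and 21.95% and 14.0% in the 20 °C lists. In lin-15B the 328 regions had 38.7% and 25.6% at 26 °C against 22.6% and 14.3% at 20 °C, and all merged regions had 66.5% and 61.7% against 53.4% and 62.1%. The 282 regions had 48.2% and 69.5% in the lin-15B 20 °C lists and 47.9% and 47.2% in its 26 °C lists. These did not overlap, but the lower 20 °C value lay close to the 26 °C values. In wild type the 282 regions had 58.9% and 47.2% at 20 °C and 32.6% and 45.4% at 26 °C, which did not overlap. All merged regions did not overlap in wild type either, with 65.5% and 71.2% at 20 °C and 64.2% and 60.0% at 26 °C. The 328 regions overlapped between the wild-type temperatures. Of the 282 regions, 96.8% overlapped the earlier 20 °C-specific set, while 23.8% of the 328 overlapped the earlier 26 °C-specific set. The cut took more peaks from the lin-37 20 °C lists (9658 and 10649 peaks) than from its 26 °C lists (7778 and 8383). How far this lowered the lin-37 20 °C shares of the 328 regions was not tested.

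**Figure D4:**
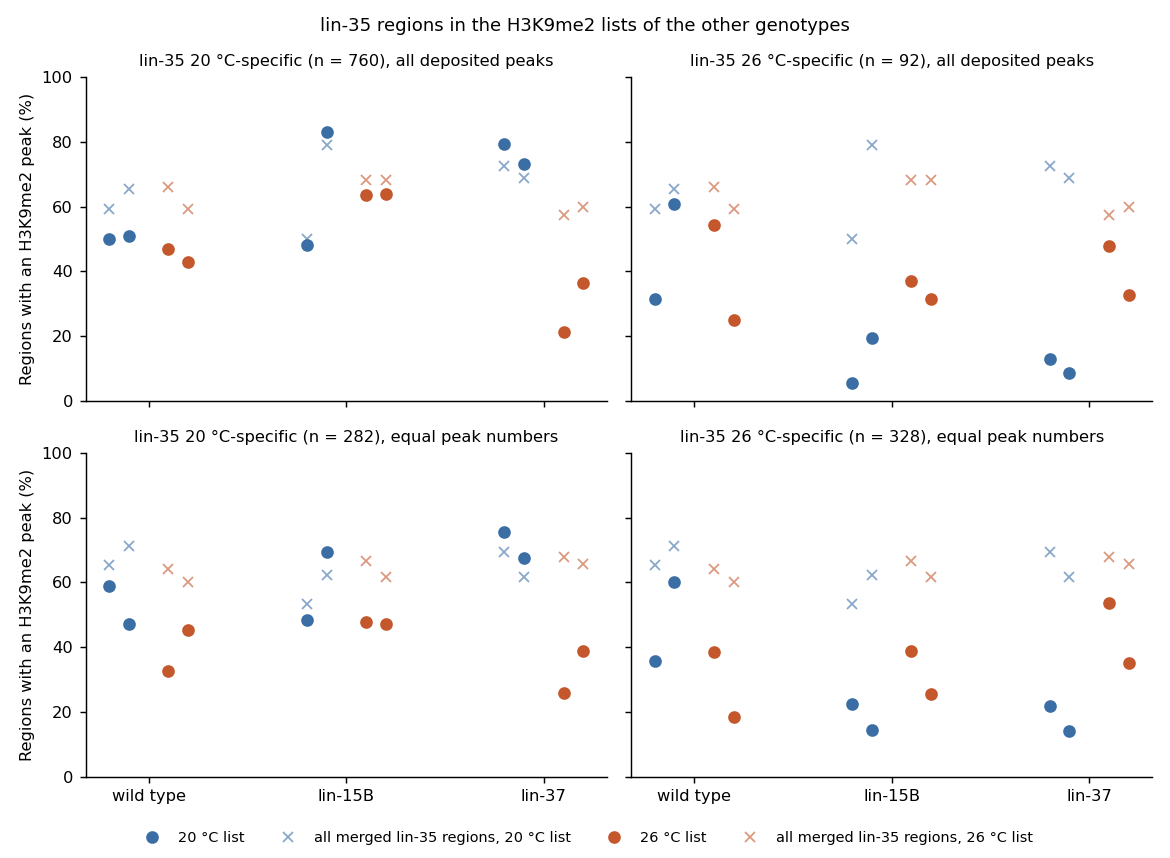
Share of lin-35 temperature-specific regions with an H3K9me2 peak (y axis, %) in each 20 °C and 26 °C list of wild type, lin-15B and lin-37, from all deposited peaks (top) and with equal peak numbers in every list (bottom). Dots are the temperature-specific regions and crosses all merged lin-35 regions in the same list; in lin-37 the 20 °C and 26 °C dots lie apart in all 4 panels.

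The same rule applied within lin-37 gave a similar imbalance. It found 1128 20 °C-specific (9.84% of 11461 merged regions) and 218 26 °C-specific regions (1.9%). Wild type had 268 (2.49% of 10762) and 392 (3.64%), and lin-15B 358 (2.33% of 15353) and 440 (2.87%), with the 26 °C-specific regions in excess. Of the 760 lin-35 regions 237 (31.2%) overlapped a 20 °C-specific region of lin-37, and 245 of the 1128 (21.7%) overlapped one of lin-35. Only 1 of the 760 overlapped a 26 °C-specific region of lin-37. Read directly from the lin-37 lists, 245 of the 760 (32.2%) had a peak in both 20 °C lists and neither 26 °C list, against 7.44% of the regions called once at each temperature and 0.578% of those called in all 4 lin-35 lists. For wild type 47 of the 760 (6.18%) overlapped a 20 °C-specific region, or 16.8% of the wild-type set, and 25 a 26 °C-specific one. For lin-15B 36 of the 760 (4.74%) overlapped a 20 °C-specific region and 11 a 26 °C-specific one. Such overlaps were not counted for all merged lin-35 regions, so the overlap shares have no background beside them. Only the direct readings are set beside regions called once at each temperature. Read directly, both 20 °C lists and neither 26 °C list called 7.24% of the 760 in wild type and 5.13% in lin-15B. Regions called once at each temperature had 2.75% and 0.647%. The reverse pattern held for 2.89% of the 760 in wild type and 1.32% in lin-15B, against 5.18% and 3.56%. Of the 92 lin-35 regions 14 (15.2%) overlapped a 26 °C-specific region of lin-37 and none a 20 °C-specific one. For lin-15B 10 of the 92 (10.9%) overlapped a 26 °C-specific region and none a 20 °C-specific one, and for wild type 3 and 1. Read directly, both 26 °C lists and neither 20 °C list of lin-37 called 15.2% of the 92. Among regions called once at each temperature the share was 3.72%. In lin-15B these shares were 13.0% and 3.56%, and in wild type 3.26% and 5.18%. With equal peak numbers the counts of 20 °C-specific and 26 °C-specific regions were 397 and 383 in lin-37, 448 and 189 in wild type and 227 and 498 in lin-15B.

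No per-list value passed a test of whether its temperature difference in lin-35 differed from that in the other genotypes. Peak number differed by -2433.5 (26 °C minus 20 °C) in lin-35, by -2073 in lin-37, by -658 in lin-15B and by 1221.5 in wild type. The lin-35 difference minus that of the other 3 genotypes together was -1930 peaks, with an exact permutation p of 0.304 (adjusted p = 0.666 over 5 values). The adjusted p was 0.666 for median width, arm share and X share and 0.761 for covered length in the same exact permutation test.

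By wild-type calls the 20 °C-specific regions were spread much like the regions called once at each temperature. Of the 760, 131 (17.2%) were called in all 4 wild-type lists, 152 (20%) in none, and 477 (62.8%) in 1 to 3. The regions called once at each temperature had 12.1%, 18.9% and 68.9%. The 131 had a median rank percentile of 34.3 and the 152 a median of 20.2. X held 6 of the 131 (4.58%) and 25 of the 152 (16.4%). Of the 131, 83.2% were called in both lin-37 20 °C lists and 45.0% in both lin-37 26 °C lists. Of the 152, 42.1% were called in both lin-37 20 °C lists and 1 region in both 26 °C lists. Of the 92 26 °C-specific regions 12 were called in all 4 wild-type lists and 20 in none.

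H3K4me3 was called at few of these regions, and its shares at 20 °C and 26 °C overlapped. Of the 760 20 °C-specific regions 13.3% and 7.0% overlapped an H3K4me3 peak in the lin-35 20 °C lists and 8.0% and 9.2% in the 26 °C lists. All merged regions had 16.7% and 10.5%, and 12.6% and 13.5%, in the same lists, and the regions called in all 4 lists 20.9% and 14.4%, and 18.4% and 19.4%. In the 4 lin-35 H3K4me3 lists, 639 of the 760 had no peak in any list (84.1%) and 44 (5.79%) had one in all 4, against 80.3% and 8.80% of all merged regions. In 8, H3K4me3 was called in both 26 °C lists and neither 20 °C list (1.05%, against 0.963% of all merged regions). Of the 92 26 °C-specific regions 77 had no H3K4me3 peak in any lin-35 list (83.7%) and 3 had one in all 4 (3.26%). The marks were called in separate libraries, so both at 1 region need not lie in the same cells.

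Within the 5191 regions called in all 4 lists no change of H3K9me2 length passed the test. Covered length per region was compared by limma on log2 values, and 0 regions passed an adjusted p of 0.05 in either direction, the smallest adjusted p being 0.445; 409 regions had an unadjusted p under 0.05, of which 164 were longer at 26 °C. The median difference was -0.04 (log2, 26 °C minus 20 °C) and turned to 0.10 when each list was centred on its median, which also gave 0 regions. The region with the smallest p, chosen after its values were seen, was II 3471258 to 3474346 on the left arm. It had 2180 and 3079 bp at 20 °C and 222 and 203 bp at 26 °C, a difference of -3.61 on the log2 scale (95% interval -4.42 to -2.80). At III 173742 to 180570 (left arm), 5746 and 6829 bp at 20 °C stood against 508 and 252 bp at 26 °C. At X 14522970 to 14528690, 811 and 515 bp at 20 °C stood against 5320 and 5150 bp at 26 °C, a difference of 3.02 (2.23 to 3.81). Each of these had an adjusted limma p of 0.445.

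Ranks within these shared regions were compared without a test. Because the lists differ in length, ranks were recomputed among the 5191 regions in each list, a step chosen after seeing the data. Both 26 °C ranks lay above both 20 °C ranks in 1119 regions (21.6%) and below them in 992 (19.1%), and the median difference was 0.41 percentile points. A shift of over 20 points with no overlap was seen in 362 regions upward and 348 downward. X held 16 of the 362 (4.42%) and 50 of the 348 (14.4%), against 7.92% of all 5191. V 18229483 to 18231018 (right arm) had 416 and 399 bp at 20 °C and 1437 and 1536 bp at 26 °C, with ranks of 0.4 and 1.9 against 61.4 and 57.6. It was called in 5 of 6 26 °C lists and in none of the 6 20 °C lists of the other genotypes. I 12732660 to 12733192 and V 20196182 to 20196888, both on right arms, were the next largest rises over whole lists, with 53.9 and 47.0 points within the shared regions. Their 20 °C replicates ranked far apart. The I region had 44.6 and 2.3 at 20 °C against 77.9 and 76.7 at 26 °C. At this second V region the ranks were 19.6 and 0.08 against 58.9 and 54.7. The I region was called in 6 of 6 lists of the other genotypes at each temperature. The second V region was called in 3 of 6 at 20 °C and 6 of 6 at 26 °C.

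In the opposite direction III 11484068 to 11485206 (right arm) had within-region ranks of 61.2 and 83.4 at 20 °C and 11.5 and 6.3 at 26 °C, and a covered length of 952 and 1139 bp against 683 and 568 bp. II 15254779 to 15255573 (right arm) ranked at 50.2 and 84.6 against 5.5 and 9.1, with 753 and 795 bp against 413 and 374 bp. III 1313478 to 1314001 (left arm) ranked at 50.3 and 67.2 against 7.3 and 2.7, while its covered length lay the other way, at 242 and 287 bp against 336 and 362 bp. All 3 were called in all 6 20 °C lists of the other genotypes and in 6, 5 and 6 of their 26 °C lists.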

How the data were processed

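Peak lists of chromatin immunoprecipitation sequencing were used: 16 for H3K9me2 and 8 for H3K4me3 (lin-35 and wild type). The submitters' processing notes name Bowtie 1.1.2, MACS2 and build ce10, and the labels name an input library for each list. Peak names of the H3K9me2 lists give a shift size of 125 bp and a q cutoff of 0.01, except 0.05 for lin-15B 20 °C replicate 1. The deposited lists give start, end and a caller's score per peak; which statistic the score is could not be settled, so it served only to rank peaks within a list (by the seventh column). Depth per list is unknown.

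Peaks were merged by at least 1 bp of overlap (Python 3.11.15, pandas 2.3.3). The highest peak end stood for chromosome length. Per-list values were compared by exact two-sided permutation tests with Benjamini-Hochberg adjustment, and covered length by limma 3.58.1 (R 4.3.3). The merging and calling of regions and the limma step were tested on simulated data, and the permutation tests were not. The limma simulation gave every region the same spread, so it does not show the power in these data. Coordinates are 1-based, in ce10. An annotation in this build was not used here, so no region was assigned to a gene and no sequence is shown. Members and lists were chosen with earlier results of these data known. Named regions are, per direction, the 6 of highest mean rank, the 3 longest, and the 3 that best follow temperature in the other genotypes, plus 3 shared regions of largest rank rise and fall over whole lists. The labels do not say whether replicates came from separate cultures, so a p-value covers only the variation among these lists and this could be technical.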

Additional observations from a re-analysis of the deposited data

Results flagged for a closer look

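Peak number and median peak width differed between temperatures in opposite directions in lin-35 and wild type, without overlap between the lists of a genotype. In wild type the 26 °C lists held 1221.5 more peaks on average than the 20 °C lists, against -2433.5 in lin-35, a difference of -3655 with an exact permutation p of 0.0556, the smallest that 2 lists per group allow. The median peak width in wild type was lower at 26 °C, by -133 bp (26 °C minus 20 °C), against 55.75 bp higher in lin-35 (exact permutation p = 0.111); with equal peak numbers the lin-35 width difference turned to -57.25 bp, the wild-type direction. Against all 3 other genotypes together neither difference passed.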

How the results depend on the processing

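The count of 20 °C-specific regions, 760, was 282 with equal peak numbers and that of 26 °C-specific regions, 92, was 328. The better-scoring part of each list gave 411 and 67. Fixed bins of 1 kb, which count bins and not regions, gave 584 and 321. A 200 bp overlap gave 562 and 138, and merging over gaps of 500 bp gave 740 and 89. Leaving out 1 lin-35 list gave 1049 to 3282 and 211 to 523. Replicate numbers were not taken to pair the samples, since the labels name no shared batch and there are only 2 pairs; what the code shared by the replicate 1 names stands for is not stated (replicate 1 deviations in covered length correlated at 0.12 between temperatures over 5191 regions). As a replicate block, the pair of replicate 1 alone gave 1712 and 711 regions and that of replicate 2 alone 4372 and 819. In the blocked permutation the difference in peak number of -2433.5 had p = 0.5, the smallest that 2 pairs allow, and limma with the replicate block also gave 0 calls.

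Arm shares of 20 °C-specific regions were 78.0% and 90.7% with arms of 25% and 35%, and 83.9% with equal peak numbers. The latter setting also gave widths of 388 bp (20 °C) and 592 bp (26 °C). Its 20 °C rank percentile was 43.3, a rise that follows from dropping the lowest-ranked peaks. A 200 bp overlap gave a 20 °C width of 647 bp and a 26 °C rank percentile of 27.3. Without 1 list, arm shares ran from 82.0 to 88.2% (20 °C) and 73.1 to 88.4% (26 °C), X shares from 9.96 to 12.9% and 9.69 to 23.0%, median widths from 237 to 524 bp and 272 to 482 bp, and rank percentiles from 17.0 to 33.96 and 8.92 to 26.7. With equal peak numbers the lin-35 differences turned for median width (-57.25 bp), arm share (-0.208 points) and X share (0.774 points); without 1 list arm share ran from -0.564 to 1.28 points and X share from -0.754 to 0.662. Of the differences from the other genotypes, covered length turned with equal peak numbers (0.328 Mb) and against wild type alone (0.101 Mb), and ran from -1.93 to 0.845 Mb without 1 list; median width turned with equal peak numbers (-24.8 bp). No alternative passed a permutation threshold of 0.05, and limma gave 0 calls in every one run, with 259 to 740 regions at an unadjusted p under 0.05 without 1 list, where the lone list is assumed to vary like the others; these designs are small, and the causes were not tested. Depth of the lists is unknown.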
